A study of Mus musculus with 31 samples.

Results

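The circadian clock genes described here are 10 genes of the 39179 in the count table of a mouse melanoma study: *Clock*, *Arntl*, *Per1*, *Per2*, *Per3*, *Cry1*, *Cry2*, *Nr1d1*, *Nr1d2* and *Dbp*. They were chosen by gene symbol, not by a cutoff on a measured value, and each symbol matched 1 gene. The list was made with earlier results of these data known. The study asked how glucocorticoids (GCs) act on melanoma cells that carry or lack the glucocorticoid receptor (GR), in tumors and in culture. Its melanoma line, 20967, was derived from C57BL/6 mice with the alleles Nras+LSL-G12D and Tyr::CreERT2+/o, the second a Cre under the tyrosinase promoter, and a derivative, GR KO, was edited at *Nr3c1*, the gene of the receptor, with CRISPR-Cas9 and grown from 1 clone. Any difference between GR KO and parental samples therefore cannot be told apart from a difference between that clone and the parental population. RNA of 20 tumors and 11 cultures was sequenced from its 3′ ends with QuantSeq FWD libraries.

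*In vivo*, parental or GR KO cells grew intradermally in wild-type C57BL/6 mice, whose own cells keep the receptor. Of each kind of tumor, 5 mice received a control cream (cetraben) and 5 received clobetasol propionate, a potent GC, as a 0.05% ointment 3 times a week. *In vitro*, the same cells spent 48 hours in DMSO, with 3 cultures of each line, or in clobetasol propionate, with 2 parental and 3 GR KO cultures. The treatment label gives its dose as 10 µM and the names of the libraries as 1 µM. Age of the mice and time of day at collection are not given in the sources used here, which bears on genes whose levels follow the day. Whether the cultures were grown separately is also not given, so p-values between cultures measure the spread between these samples, which may be technical.

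The mammalian clock is a feedback loop of transcription. CLOCK and BMAL1, the product of *Arntl*, bind E-box sequences as a pair and switch on the *Per* and *Cry* genes, whose products come back to repress the pair. The nuclear receptors of *Nr1d1* and *Nr1d2* repress *Arntl*, and *Dbp*, itself driven by the pair, encodes a transcription factor that acts on D-box sequences of output genes. GCs are known to set the phase of clocks outside the brain, and *Per1* is a textbook target of the receptor in many cell types.

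*Nr3c1* was examined first, since it is the edited gene. In counts scaled to library size (CPM), it stood at 33.2, 30.0 and 35.6 in parental cells with DMSO and at 39.5 and 33.4 with GC. GR KO cells had 24.8, 21.0 and 16.4 CPM with DMSO and 20.9, 22.4 and 13.1 CPM with GC. Every GR KO culture was below every parental culture, yet none was at 0. In control tumors, *Nr3c1* was at 63.4, 57.1, 44.9, 55.6 and 52.2 CPM when parental and at 20.7, 27.3, 31.4, 31.8 and 23.5 CPM when GR KO, again without overlap. In GC-treated tumors the values were 53.4, 24.4, 48.2, 37.3 and 49.8 CPM when parental and 47.9, 21.7, 58.0, 32.5 and 49.4 CPM when GR KO, and these groups overlapped. Tags from the 3′ end do not check the edit itself, and transcripts of host cells are counted with those of tumor cells. The paper checked GR protein in single clones by western blot, which these RNA levels do not measure.

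The label of the line was compared with 7 melanocytic markers. *Tyr*, tyrosinase, was at 0 in all 31 libraries, and *Mlana*, *Dct* and *Sox10* were at 0 in all 11 cultures. *Mitf*, the melanocyte master regulator, was the most abundant of the markers, and their summed level averaged 10.4 CPM with DMSO and 10.7 CPM with GC in the parental line, and 4.04 CPM with DMSO and 5.38 CPM with GC in the GR KO line. The defining pigment markers were thus absent or nearly so from the cultured line, which is called here by its name. In the same cultures the 4 fibroblast markers, led by *Col3a1*, summed to 229, 184, 76.3 and 70.5 CPM, and the 4 T cell markers were at 0 throughout. In tumors the fibroblast markers averaged 5460 CPM (control) and 7180 CPM (GC) when parental and 3720 CPM (control) and 6430 CPM (GC) when GR KO. The T cell markers, led by *Cd3d*, summed to 27.6 to 114 CPM in the 20 tumors, so transcripts of host cells were counted in every tumor. For bulk tumor RNA, fewer cells of a type and less RNA per cell cannot be told apart.

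Reads assigned to genes numbered 15528066 to 26386770 in tumors and 14441166 to 22463188 in cultures. At this depth 3 counts, taken as the floor of detection, correspond to 0.114 to 0.193 CPM in tumors and 0.134 to 0.208 CPM in cultures. Such floors cover counting error only, since reads copied by PCR are not independent molecules. Some tumors stood apart. Thinned to 14441166 reads, GR KO control tumors 1 to 5 had 13379, 14769, 15118, 16740 and 14243 genes detected, against 15556 to 16727 in parental control tumors, and their 10 most abundant genes took 19.5, 16.4, 13.8, 7.39 and 22.8% of the reads. Parental GC tumors 2 and 4 had 15762 and 15766 genes against 16875, 16632 and 16715 in the other 3, and GR KO GC tumors 2 and 4 had 15535 and 15132 against 16609, 16618 and 16421. Alternatives that leave out GR KO control tumors 1, 2 and 5 or parental GC tumors 2 and 4, or that enter the number of genes detected as a covariate, were chosen after seeing the data.

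To assess which clock genes responded to GC in culture, cells with GC were compared with those in DMSO. *Per1*, which encodes a repressor of the CLOCK and BMAL1 pair, was at 7.09, 3.88 and 5.46 CPM in parental cells with DMSO and at 37.0 and 37.9 CPM with GC. Both GC cultures lay far above the 3 DMSO cultures, and they lay close to each other. *Per1* rose 6.84-fold (95% interval 4.51 to 10.4), a log2 fold change of 2.77 (standard error, SE, 0.27, adjusted p = 0.000337 from edgeR's quasi-likelihood test with Benjamini-Hochberg adjustment over the 12525 genes tested). A gene was called where its adjusted p was under 0.05 and its change at least 1.5-fold, and 1 of the 10 clock genes, *Per1*, was called, against 0.878% of all genes tested. Of the markers of other cell types 0 were called. The 3 endothelial markers, led by *Kdr*, summed to 1.82, 1.91 and 1.82 CPM with DMSO and to 4.62 and 3.57 CPM with GC, and the 4 adipocyte markers, led by *Fabp4* with *Plin1* and *Cfd* at 0, to 0, 0 and 0.235 CPM and to 5.52 and 2.35 CPM. Their part in the level of *Per1* was not tested. The median log2 fold change of the 10 was -0.05, and that of all genes tested was -0.00.

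In GR KO cells, *Per1* was at 7.53, 6.63 and 4.47 CPM with DMSO and at 5.53, 5.25 and 5.11 CPM with GC. These groups overlapped, and both were near the level of parental cells without GC. Its log2 fold change was -0.23 (95% interval -0.78 to 0.32, adjusted p = 0.976 from edgeR), an interval that ends below the one in parental cells. In this comparison edgeR called 0 of the 10 clock genes, against 0% of all genes tested, with 0 clock genes and 237 genes in all at an unadjusted p under 0.05, and DESeq2 also called 0 clock genes and 0 genes in all. The other 9 ranged from a log2 fold change of -0.40 to 0.42, and for 8 of the 10 the 95% interval lay within 2-fold in either direction. With each sample left out in turn, *Per2* ran from -1.33 to 0.05 and *Arntl* from -0.85 to 0.46.

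The difference between the GC effects of parental and GR KO cells was tested directly. For *Per1* it was 3.00 on the log2 scale (SE 0.37, 95% interval 2.19 to 3.82, adjusted p = 0.00415 from edgeR), with 2 of 2 parental GC cultures above and 3 of 3 GR KO GC cultures within the range of their DMSO cultures. Of the 10 clock genes, 1 passed this test, against 0.295% of all genes. The other 9 had differences from -0.73 to 1.48, with *Per2* the highest at 1.48 (95% interval -1.0 to 3.95). With each sample left out in turn, the difference for *Per2* ran from 0.96 to 2.4.

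The clock genes not called in parental cells include those of the repressor arm other than *Per1*. *Per2*, the close relative of *Per1* in the repressor complex, was at 3.25, 0.308 and 4.11 CPM with DMSO and at 5.93 and 4.88 CPM with GC. Both GC cultures were above the DMSO cultures, but DMSO culture 2 held 5 counts of the gene and the log2 fold change of 1.07 had a 95% interval from -0.74 to 2.89 (adjusted p = 0.704 from edgeR). *Per3*, the third period gene, was at 7.80, 6.83 and 5.40 CPM with DMSO and at 2.69 and 4.93 CPM with GC, without overlap and in the other direction, with a log2 fold change of -0.80 (95% interval -1.52 to -0.08, adjusted p = 0.511 from edgeR). *Cry1* and *Cry2*, the cryptochrome repressors that pair with the PER proteins, had log2 fold changes of 0.17 and 0.09, each with an interval within 2-fold.

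Neither receptor gene of the loop was called with GC in parental cells, where both had lower values. *Nr1d1*, which encodes REV-ERBα, was at 27.3, 30.8 and 25.2 CPM with DMSO and at 16.1 and 18.1 CPM with GC. The GC cultures lay below every DMSO culture, with a log2 fold change of -0.70 (SE 0.20, 95% interval -1.13 to -0.27), an unadjusted p of 0.00428 and an adjusted p of 0.198 from edgeR. Of all genes tested here, 8.48% had an unadjusted p under 0.05, and how many separated the cultures without overlap was not counted. *Nr1d2*, which encodes the related REV-ERBβ, was at 33.8, 45.4 and 35.4 CPM with DMSO and at 25.4 and 28.8 CPM with GC, likewise without overlap. Its log2 fold change was -0.49 (SE 0.19, adjusted p = 0.447 from edgeR), and its difference from the effect in GR KO cells was -0.64 (SE 0.25, adjusted p = 0.542 from edgeR). *Clock*, *Arntl* and *Dbp* overlapped between DMSO and GC, with log2 fold changes of -0.18, 0.36 and -0.46.

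**Figure D1:**
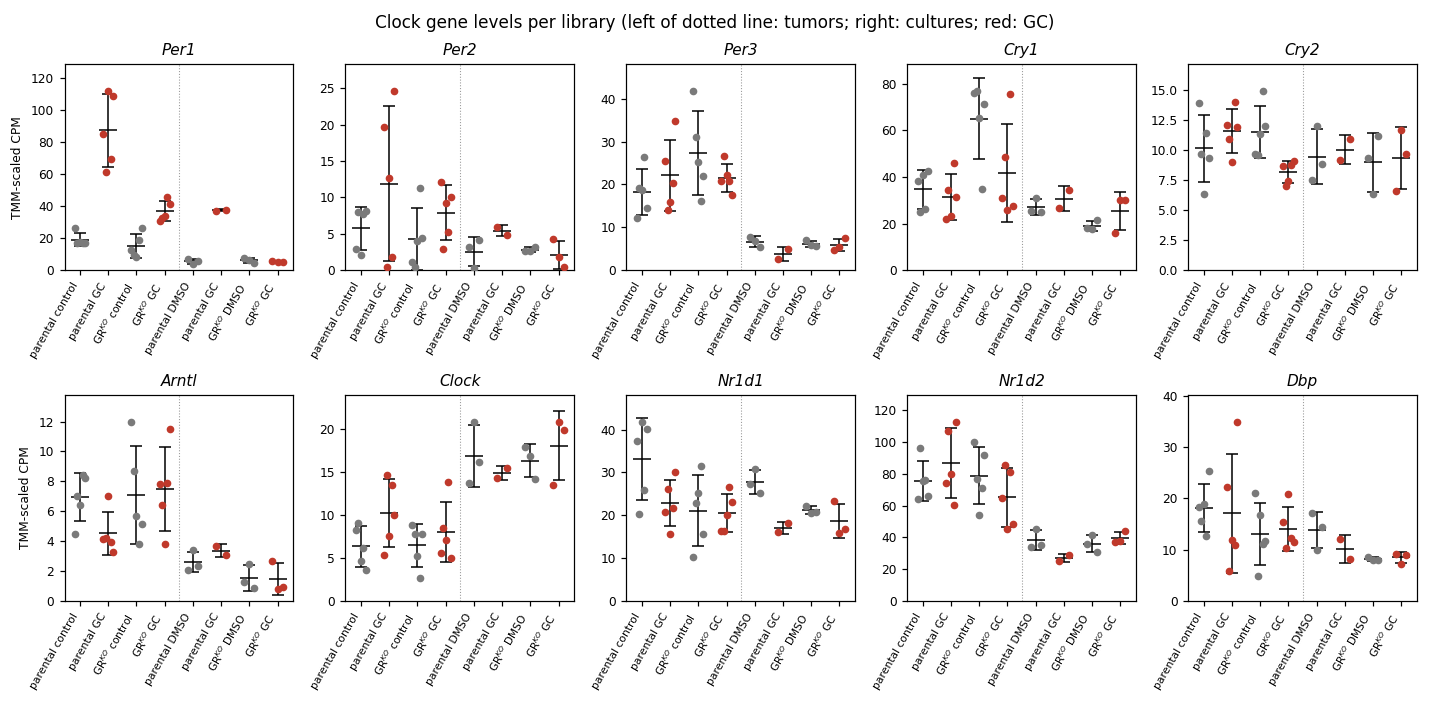
TMM-scaled CPM of the 10 clock genes in each of the 31 libraries, scaled separately within tumors (left of the dotted line) and cultures (right), with GC-treated samples in red and bars at the mean ± SD of each group. *Per1* is high with GC in parental tumors, parental cells and GR KO tumors, while GR KO cells with GC stay at 5.11 to 5.53 CPM.

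*In vivo*, GC-treated parental tumors were set against control parental tumors. *Per1* was at 26.6, 17.1, 17.5, 16.9 and 17.3 CPM in control tumors and at 85.0, 61.4, 112, 69.8 and 109 CPM with GC. The lowest GC-treated tumor was above the highest control tumor, which itself stood apart from 4 closely spaced ones. *Per1* rose 4.57-fold (95% interval 3.10 to 6.75), a log2 fold change of 2.19 (SE 0.27, adjusted p = 0.000147 from edgeR), and was higher in 5 of 5 GC-treated tumors. Again 1 of the 10 clock genes was called, against 0.779% of the 15919 genes tested, and the median log2 fold change was 0.20 for the clock genes and 0.00 for all genes.

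Markers of other cell types moved with GC in parental tumors, where the only ones called were of neutrophils. Of the 4 neutrophil markers, 3 were tested and 2, *S100a8* and *S100a9*, were lower with GC, while *Ly6g* was at 0. Their summed level, led by *S100a8*, was 19.5, 63.3, 237, 26.9 and 1270 CPM in control tumors and 11.4, 7.59, 9.77, 20.9 and 38.2 CPM with GC. The 3 endothelial markers, led by *Kdr*, summed to 62.5, 49.6, 40.6, 63.6 and 42.9 CPM in control tumors and to 32.3, 16.8, 22.0, 32.0 and 30.8 CPM with GC, and the 4 fibroblast markers, led by *Col3a1*, to 4820, 5770, 5610, 5620 and 5500 CPM and to 7750, 6180, 8270, 5810 and 7870 CPM, each without overlap and with 0 called. The part of these cells in the level of *Per1* was not tested.

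In GR KO tumors, *Per1* was at 12.9, 9.67, 8.40, 18.7 and 26.2 CPM with control cream and at 31, 32.5, 34.2, 45.9 and 41.6 CPM with GC. The groups did not overlap, although the highest control tumor came close to the lowest GC-treated one. *Per1* rose 2.44-fold (95% interval 1.67 to 3.57), a log2 fold change of 1.29 (SE 0.27, adjusted p = 0.00744 from edgeR). It was the 1 clock gene of 10 called here, against 6.42% of all genes tested, a share at which 1 call among 10 is not a result about the list. Without GR KO control tumors 1, 2 and 5, the libraries with the fewest genes detected, the log2 fold change was 1.40 and the adjusted p from edgeR 0.0740, so that the call was lost with 2 control tumors left. With the number of genes detected as a covariate, *Per1* was called, at 1.28 (adjusted p = 0.0336 from edgeR).

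Such markers also moved with GC in GR KO tumors. Of 4 fibroblast markers, 3 (*Col1a1*, *Col3a1* and *Pdgfra*) were called higher, and the summed level of the 4, led by *Col3a1*, was 3030, 3190, 3480, 4890 and 4010 CPM with control cream and 6510, 6050, 7120, 5690 and 6800 CPM with GC. Of the keratinocyte markers, *Krt1* and *Krt10* were called higher and *Krt14*, the most abundant, lower, and the sum of the 6 markers was 2890, 3620, 2940, 1300 and 1770 CPM against 703, 882, 1320, 1530 and 1370 CPM. *Cd3d* of T cells, *Kdr* of endothelium, *Myh4* of muscle and *Cfd* of fat were called lower. The endothelial markers summed to 86.0, 79.4, 95.9, 95.6 and 72.8 CPM with control cream and to 45, 49.4, 42.1, 39.1 and 44.9 CPM with GC, and the adipocyte markers, led by *Cfd*, to 93.9, 164, 127, 229 and 90.5 CPM and to 79.4, 64.7, 59.1, 66.2 and 58.0 CPM, each without overlap. Host cells keep the receptor, and the part of these cells in the rise of *Per1* was not tested.

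The GC effect on *Per1* was larger in parental than in GR KO tumors by 0.91 on the log2 scale (SE 0.37, 95% interval 0.14 to 1.67), but with an unadjusted p of 0.0219 and an adjusted p of 0.179 from edgeR the difference did not pass. For this difference edgeR called 0 of the 10 clock genes, against 0.195% of all genes, with 1 clock gene, *Per1*, and 3192 genes in all at an unadjusted p under 0.05, and DESeq2 also called 0 of the 10. The remaining 9 had differences from -0.70 to 0.69, and none of the 10 had a 95% interval within 2-fold, so the tumors bound these differences only loosely.

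The other clock genes were not called with GC in either kind of tumor. For the activators *Clock* and *Arntl* the log2 fold changes in parental tumors were 0.69 (95% interval -0.09 to 1.48) and -0.62 (95% interval -1.36 to 0.12). Both intervals span no change, so no direction is shown for either. In GR KO tumors the values were 0.31 and 0.08. *Arntl* was at 4.46, 7.05, 6.43, 8.44 and 8.23 CPM in parental control tumors and at 4.13, 4.19, 7.03, 3.94 and 3.25 CPM with GC, where tumor 3 stood apart from 4 low ones. In GR KO tumors *Arntl* was at 12, 8.72, 5.67, 3.82 and 5.16 CPM and, with GC, at 7.80, 6.41, 3.82, 7.89 and 11.5 CPM, which overlap widely. *Clock* ranged from 3.58 to 9.11 CPM in parental control tumors and from 5.36 to 14.7 CPM with GC, and its 2 highest values were those of GC-treated tumors 2 and 4, which had the fewest genes detected in their group. Without these 2 tumors the log2 fold change of *Clock* was 0.27 (adjusted p = 0.979 from edgeR), and with the number of genes detected as a covariate it was 0.70 (adjusted p = 0.192 from edgeR).

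*Per2* varied widely between tumors of the same group. It was at 2.93, 7.96, 2.06, 7.68 and 8.08 CPM in parental control tumors and at 19.7, 0.471, 12.7, 1.87 and 24.6 CPM with GC. The lows of 0.471 and 1.87 CPM were again tumors 2 and 4, the first of them with 9 counts. Over the 5 tumors the log2 fold change was 1.05 (95% interval -0.51 to 2.60, adjusted p = 0.559 from edgeR), without tumors 2 and 4 it was 1.72, and with the number of genes detected as a covariate 0.48. In GR KO tumors *Per2* was at 1.17, 0.478, 4.03, 11.3 and 4.36 CPM with control cream and at 12.1, 2.91, 9.26, 5.19 and 10.0 CPM with GC, and these ranges overlapped (log2 fold change 0.88, adjusted p = 0.50 from edgeR). With the number of genes detected as a covariate this value was -0.22, and with each sample left out in turn it ran from 0.59 to 1.66.

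*Cry1* in GR KO tumors was at 76.2, 76.9, 65.3, 34.9 and 71.5 CPM with control cream and at 31, 48.6, 25.9, 75.5 and 27.4 CPM with GC. The groups overlapped through tumor 4 of each, the lowest with control cream and the highest with GC. The log2 fold change was -0.64 (95% interval -1.24 to -0.04, adjusted p = 0.176 from edgeR), and without GC-treated tumor 4 it was -0.97 and passed (adjusted p = 0.0351 from edgeR). With the number of genes detected as a covariate it was -0.06 (adjusted p = 0.937 from edgeR), and without GR KO control tumors 1, 2 and 5 it was -0.30 (adjusted p = 0.810 from edgeR), both alternatives chosen after seeing the data. *Cry2* averaged 11.5 ± 2.17 CPM in GR KO control tumors, the lowest at 9.62 CPM, and 8.19 ± 0.920 CPM with GC, the highest at 9.12 CPM, so the groups did not overlap (log2 fold change -0.49, SE 0.24, adjusted p = 0.216 from edgeR). In parental tumors the cryptochromes overlapped between treatments, with log2 fold changes of -0.14 for *Cry1* and 0.19 for *Cry2*.

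*Nr1d1* was at 37.4, 20.3, 41.9, 25.9 and 40.2 CPM in parental control tumors and at 20.7, 26.1, 15.7, 21.8 and 30.0 CPM with GC. The 3 highest control tumors exceeded every GC-treated tumor, and the others overlapped (log2 fold change -0.54, 95% interval -1.10 to 0.03, adjusted p = 0.380 from edgeR). In GR KO tumors its log2 fold change was -0.04. *Per3*, *Nr1d2* and *Dbp* overlapped between treatments in both kinds of tumor, with log2 fold changes of 0.28, 0.20 and -0.09 in parental and -0.34, -0.27 and 0.11 in GR KO tumors. *Dbp* was spread widest in GC-treated parental tumors, from 5.86 to 35.0 CPM.

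**Figure D2:**
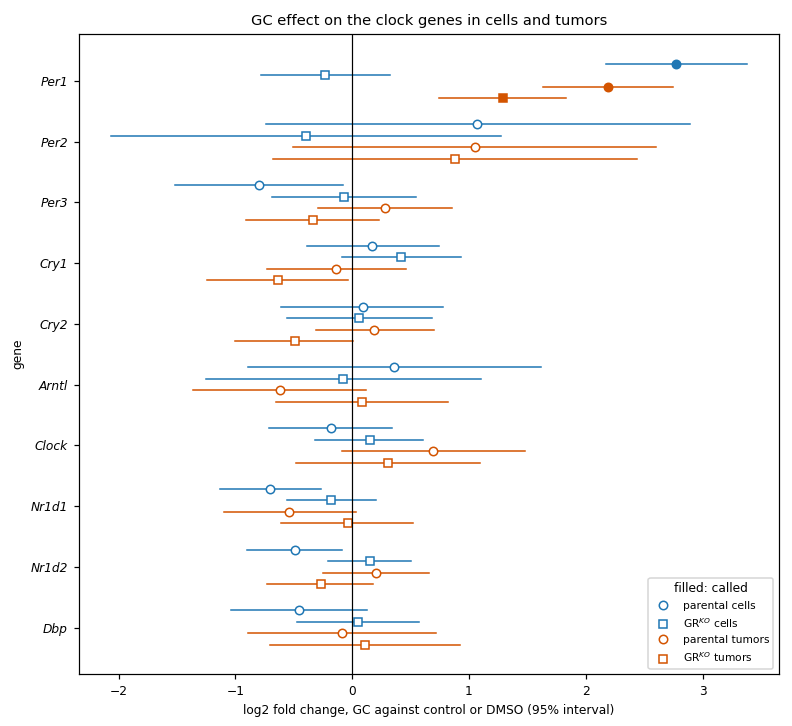
Log2 fold change of each clock gene with GC against control or DMSO, with 95% intervals derived from edgeR's test statistic, in parental and GR KO cells (blue) and tumors (orange). Filled symbols mark called genes, which are *Per1* in parental cells (2.77), parental tumors (2.19) and GR KO tumors (1.29).

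To assess whether the clock genes differed between the lines without GC, GR KO and parental samples were compared. In DMSO-treated cells edgeR called 0 of 10, against 8.22% of all genes, with 3 clock genes, beside 24.2% of all genes, at an unadjusted p under 0.05 and 1 called by DESeq2. That gene was *Dbp*, the output transcription factor of the loop, at 17.1, 9.97 and 14.4 CPM in parental and at 8.57, 8.02 and 7.91 CPM in GR KO cells. The GR KO cultures were tightly grouped below every parental one, with a log2 difference of -0.76 (SE 0.24, unadjusted p = 0.00783, adjusted p = 0.0700 from edgeR), and DESeq2 gave -0.76 with an adjusted p of 0.0255. Without parental culture 2, edgeR gave -0.94 with an adjusted p of 0.0277, without parental culture 1 it gave -0.58 with 0.207, and with all 31 libraries in one fit -0.75 with 0.588. Among the markers, *Mitf* (log2 difference -1.36) and 3 of the 4 fibroblast markers, *Col1a1* (-4.30), *Col3a1* (-1.37) and *Dcn*, at 0 in GR KO cells so that no fold is given, were also called lower in GR KO cells. The 4 fibroblast markers, led by *Col3a1*, summed to 278, 168 and 239 CPM in parental and to 78.2, 82.1 and 68.5 CPM in GR KO cells, and the part of these genes in the level of *Dbp* was not tested. The other clock genes at an unadjusted p under 0.05 were *Cry1* (log2 difference -0.51, SE 0.23) and *Nr1d1* (-0.39, SE 0.17), each lower in all 3 GR KO cultures than in any parental one.

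In control tumors edgeR also called 0 of 10 between the lines, against 2.25% of all genes, with 3 clock genes, beside 20% of all genes, at an unadjusted p under 0.05 and 1, *Cry1*, called by DESeq2. *Cry1* was at 38.3, 25.2, 41.0, 26.1 and 42.7 CPM in parental control tumors, and 4 of the 5 GR KO control tumors (65.3 to 76.9 CPM) were above all of them. Only GR KO control tumor 4, at 34.9 CPM, lay within the parental range. The log2 difference was 0.91 (SE 0.29, 95% interval 0.30 to 1.51, unadjusted p = 0.00483, adjusted p = 0.0922 from edgeR). DESeq2 gave 0.93 with an adjusted p of 0.0396, and without GR KO control tumor 4 edgeR gave 1.06 with an adjusted p of 0.0209. With the number of genes detected as a covariate, chosen after seeing the data, edgeR's difference was 0.21 (adjusted p = 0.878), and without GR KO control tumors 1, 2 and 5 it was 0.55 (adjusted p = 0.763). High *Cry1* and few genes detected thus occurred in the same GR KO control tumors. Of the markers of other cells, *Col3a1* and *Krt1* were called lower and *Kdr* higher in these tumors, and their part in the level of *Cry1* was not tested. *Per3* (0.58, SE 0.28) and *Nr1d1* (-0.65, SE 0.27) had unadjusted p-values of 0.0474 and 0.0263 from edgeR, and their groups overlapped.

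Under GC the lines differed in *Per1*. In cells its log2 difference, GR KO against parental, was -2.82 (SE 0.27, adjusted p = 9.56e-05 from edgeR), with 3 of 3 GR KO cultures below both parental ones. It was the 1 clock gene of 10 called, against 5.55% of all genes, a share at which 1 call among 10 is not a result about the list. Also called lower in these GR KO cells were *Nr3c1* (-0.95), *Mitf* (-1.02) and 2 of the 4 fibroblast markers, *Col1a1* (-4.0) and *Col3a1* (-1.21). The fibroblast list summed to 192 and 176 CPM in parental and to 84.5, 62.8 and 64.0 CPM in GR KO cells. Among lists without a called gene, the endothelial sums were 4.62 and 3.57 CPM in parental against 0.883 to 2.32 CPM in GR KO cells. Adipocyte sums were 5.52 and 2.35 against 0 to 0.228 CPM, and muscle sums 4.00 and 2.89 against 1.88 to 2.46 CPM. The part of these genes in the level of *Per1* was not tested. *Nr1d2* was higher in the 3 GR KO cultures (37.1, 38.0 and 44.0 CPM) than in both parental ones, with a log2 difference of 0.55 that missed the threshold (SE 0.19, adjusted p = 0.130 from edgeR). *Arntl* (2.68, 0.756 and 0.946 CPM against 3.65 and 3.07 CPM) and *Per2* (4.22, 1.75 and 0.442 CPM against 5.93 and 4.88 CPM) were lower in all 3 GR KO cultures than in both parental ones and were not called either, with log2 differences of -1.20 (95% interval -2.47 to 0.07) and -1.33 (95% interval -3.15 to 0.49). With each sample left out in turn, these differences ran from -1.98 to -0.88 and from -2.26 to -0.86. In GC-treated tumors *Per1* was lower in all 5 GR KO tumors than in any parental one, with a log2 difference of -1.24 (SE 0.26, 95% interval -1.78 to -0.69, adjusted p = 0.0242 from edgeR). It was the 1 clock gene of 10 called, against 0.634% of all genes. Of the markers, *Cfd* (-1.15) was called lower in GR KO tumors, where the adipocyte sums were 58.0 to 79.4 CPM against 111 to 150 CPM in parental ones. Without a called gene, the endothelial sums were 39.1 to 49.4 CPM against 16.8 to 32.3 CPM and the neutrophil sums, led by *S100a8* with *Ly6g* at 0, 44.6 to 225 CPM against 7.59 to 38.2 CPM, so 3 lists did not overlap, and their part in the level of *Per1* was not tested. It was called under 11 of 11 alternatives other than single samples left out, with -1.46 (adjusted p = 0.0248 from edgeR) without parental GC tumors 2 and 4, and in 4 of 10 fits with 1 sample left out. Leaving out parental tumor 3 or 5 gave adjusted p-values of 0.0665 and 0.0748 from edgeR, and leaving out GR KO tumor 1, 2, 3 or 5 gave 0.0845, 0.0632, 0.0770 and 0.0571, while the difference stayed between -1.34 and -1.14. These comparisons share GC-treated samples with the GC effects above and are not further evidence for them.

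Control tumors were also set against DMSO-treated cells of the same line, in a fit of all 31 libraries. The contrast holds everything that separates a tumor in a mouse from a culture, host cells included, and these cannot be told apart. In the parental line 5 of 10 clock genes were called, 4 higher in tumors and 1 lower, against 46.7% of the 16273 genes tested, a share close to that of the clock genes. In the GR KO line 6 of 10 were called, 5 higher and 1 lower, against 54.8% of all genes, again close to the background. The median log2 difference of the clock genes was 0.64 in the parental and 0.86 in the GR KO line, beside 0.37 and 0.33 for all genes.

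*Clock* was the gene lower in tumors: in this scaling control tumors held 3.46 to 9.20 CPM when parental and 2.81 to 8.73 CPM when GR KO, and DMSO cultures 14.0 to 21.2 and 14.4 to 18.6 CPM. Tumors and cultures did not overlap, and the log2 differences were -1.45 (SE 0.36, adjusted p = 0.00133 from edgeR) and -1.39 (SE 0.36, adjusted p = 0.00164 from edgeR) in the parental and GR KO lines. Its partner *Arntl* was higher in tumors by 1.37 (SE 0.46, adjusted p = 0.0155 from edgeR) and 2.15 (SE 0.48, adjusted p = 0.000372 from edgeR). Without DMSO culture 1 or 3 the parental difference in *Arntl* was 1.23 or 1.29, with adjusted p-values of 0.0704 and 0.0593 from edgeR. The activators of the loop thus differed in opposite directions between tumors and cultures.

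*Per1* was higher in control tumors by 1.76 (SE 0.32) in the parental and 1.26 (SE 0.31) in the GR KO line, with adjusted p-values of 3.10e-05 and 0.000942 from edgeR. *Per3* was higher by 1.41 (SE 0.32) and 2.09 (SE 0.33), with adjusted p-values of 0.000599 and 4.00e-06 from edgeR. *Nr1d2* was higher by 0.94 (SE 0.24) and 1.09 (SE 0.24), with adjusted p-values of 0.00136 and 0.000244 from edgeR. *Cry1* passed in the GR KO line, at 1.72 (SE 0.32, adjusted p = 4.20e-05 from edgeR), and not in the parental line, at 0.30 (adjusted p = 0.429 from edgeR). That contrast between the lines was not itself tested. *Per2*, *Cry2*, *Nr1d1* and *Dbp* were called in neither line.

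The order of the levels over the 8 groups was taken from one scaling of all libraries. *Per1* was highest in GC-treated parental tumors (86.8 ± 23.5 CPM, SD, n = 5), followed by parental cells with GC (38.4 ± 0.569, n = 2) and GC-treated GR KO tumors (36.2 ± 5.84, n = 5), which did not differ beyond their spread. Then came parental control tumors (18.9 ± 4.18, n = 5), GR KO control tumors (15.3 ± 7.49, n = 5), and cells: GR KO with DMSO (6.39 ± 1.68, n = 3), parental with DMSO (5.59 ± 1.64, n = 3) and GR KO with GC (5.32 ± 0.318, n = 3), where no neighbour differed from the next beyond the spread. The 3 highest groups were thus the GC-treated ones other than GR KO cells.

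*Clock* had the 4 cell groups on top (18.2, 17.2, 16.8 and 15.3 CPM) and the 4 tumor groups beneath (10.1, 7.84, 6.42 and 6.31 CPM), with a step beyond the spread between cells and tumors alone. *Per3* ran the other way, with tumors at 27.1, 22.0, 21.1 and 18.1 CPM and cells at 6.81, 6.37, 5.92 and 3.91 CPM. *Nr1d2* did likewise, with tumors at 86.2, 78.8, 75 and 63.9 CPM, cells at 39.8, 39.0 and 36.9 CPM, and parental cells with GC set apart at 27.8 CPM. For *Arntl* (7.29 to 1.48 CPM), *Per2* (11.9 to 2.17 CPM), *Cry1* (64.5 to 19.5 CPM), *Cry2* (11.6 to 8.0 CPM), *Nr1d1* (32.7 to 17.6 CPM) and *Dbp* (17.9 to 8.39 CPM), no group differed beyond the spread from its neighbour in the order.

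A wider list of 24 genes of the clock or its regulation was counted for context. With GC, edgeR called 0 of 21 tested in parental and in GR KO cells, against 0.878% and 0% of all genes, with 0 at an unadjusted p under 0.05, beside 8.48% and 1.89% of all genes, and 0 called by DESeq2, while the others were too low to test. In tumors edgeR called 0 of 24 in parental ones, against 0.779% of all genes, with 6, beside 14.1% of all genes, at an unadjusted p under 0.05 and 0 by DESeq2, and 0 of 24 in GR KO ones, against 6.42% of all genes, with 5, beside 24.5% of all genes, at an unadjusted p under 0.05 and 2 by DESeq2 (*Bhlhe41* and *Sirt1*). Between the lines edgeR called 1 of 21 in cells with DMSO and 2 of 21 with GC, against 8.22% and 5.55% of all genes. In control tumors it called 0 of 24, against 2.25% of all genes, with 3 at an unadjusted p under 0.05, beside 20% of all genes, and 0 by DESeq2, and in GC-treated tumors 0 of 24, against 0.634% of all genes, with 4 at an unadjusted p under 0.05, beside 11.4% of all genes, and 1 (*Rora*) by DESeq2. *Ccrn4l*, the deadenylase nocturnin, was higher in GR KO cells with DMSO (log2 difference 1.04, SE 0.19, adjusted p = 0.00498 from edgeR) and with GC (0.82, adjusted p = 0.0450 from edgeR). *Usp2*, a deubiquitinase with a daily rhythm, was at 5.17 and 6.96 CPM in parental cells with GC and at 2.51, 1.42 and 1.39 CPM in GR KO cells with GC, a log2 difference of -1.78 (SE 0.40, adjusted p = 0.0206 from edgeR). Of the 24, control tumors exceeded DMSO cells in 7 and fell short in 5 in the parental line, close to the 46.7% of all genes, and exceeded in 7 and fell short in 2 in the GR KO line, below the 54.8% of all genes. Among those higher in both lines were *Rora* (log2 difference 6.04 and 6.88), *Hlf* (3.24 and 3.34), *Usp2* (3.12 and 4.53) and *Sirt1* (0.88 and 1.05). *Bhlhe41* (0.91) was called higher in the parental line, and *Bhlhe40* (1.02) and *Npas2*, at 0 in the GR KO DMSO cultures so that no fold is given, in the GR KO line. *Nfil3* (-1.22 and -0.98) and *Csnk1d* (-0.92 and -0.73) were lower in both, and *Tef* (-0.74), *Csnk1e* (-1.60) and *Timeless* (-1.04) in the parental line.

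Known GC targets gave the scale of the response. Of 8 such genes, some of which the study named from these same samples so that they are not independent evidence, 7 were tested in cells. In parental cells 4 were called, all higher, against 0.878% of all genes: *Tsc22d3*, which encodes GILZ (3.09), *Fkbp5*, a chaperone of the receptor (2.33), *Klf9* (1.91) and *Sgk1* (1.46). *Per1*, at 2.77, lay between *Tsc22d3* and *Fkbp5*. In GR KO cells edgeR called 0 of 7, against 0% of all genes, with 0 at an unadjusted p under 0.05, beside 1.89% of all genes, and 0 by DESeq2. In parental tumors 4 of 8 were called, against 0.779% of all genes, *Tsc22d3* (2.34), *Ddit4* (1.77), *Klf9* (1.51) and *Sgk1* (1.27), and in GR KO tumors also 4 of 8, against 6.42% of all genes, *Fkbp5* (2.03), *Tsc22d3* (1.77), *Klf9* (1.25) and *Ddit4* (1.19). Their median log2 fold changes were 1.46 and -0.22 in parental and GR KO cells and 1.39 and 1.28 in the corresponding tumors. Gene by gene, the difference of GC effects between the lines had a median of 1.53 in cells, positive in 7 of 7. In tumors it was 0.58, positive in 6 of 8. For cells edgeR called 2, *Tsc22d3* and *Sgk1*, against 0.295% of all genes. For tumors it called 0, against 0.195% of all genes, with 3 at an unadjusted p under 0.05, beside 20.1% of all genes, and 0 by DESeq2.

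To assess whether the clock genes varied together from tumor to tumor, the deviations of log2(CPM + 1) from the group mean were correlated for all 45 pairs over the 20 tumors. With permutation within groups and Benjamini-Hochberg adjustment, 0 pairs passed and 4 had an unadjusted p under 0.05. *Per2* and *Cry1* had r = -0.63 (permutation p = 0.00263) and rho = -0.65 (permutation p = 0.00262), with an adjusted p of 0.104. *Per2* and *Clock* had r = -0.63 (permutation p = 0.00666) and rho = -0.62 (permutation p = 0.00827). *Cry1* and *Clock* had r = 0.64 (permutation p = 0.00696) and rho = 0.53 (permutation p = 0.0294). *Per2* and *Dbp* had r = 0.60 (permutation p = 0.0449) and rho = 0.46 (permutation p = 0.109). Without the 2 tumors farthest from the median of the first gene, r was -0.70, -0.58, 0.61 and 0.28, so the last rests on those tumors. With the number of genes detected removed by regression, an alternative chosen after seeing the data, r was -0.16, -0.30, 0.14 and 0.76. The first 3 were thus weaker under it, and the part of library complexity in them was not tested. *Cry1* and *Nr1d1* went from r = 0.12 to 0.67 under that regression, where 0 pairs passed and the lowest adjusted p, 0.0722 by permutation, was shared by this pair and by *Per2* and *Dbp*. Over all pairs r was positive in 23 of 45, with a median of 0.01.

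The genes whose log2(CPM + 1) followed each clock gene most closely were taken from the 15918 others tested, over the 20 tumors. These tumors share treatment groups and library complexity, and the values are a description. *Per1* was followed by *Tsc22d3* (r = 0.90), *Mt2* (0.88) and *Myo5a* (0.87). Of these, *Tsc22d3* is a GC target listed above, and the paper labels *Mt2* as GC-inducible. *Per2* was followed by *Nfkbia* (0.89), *Mir351* (0.88) and *Picalm* (0.87), and *Per3* by *Hps4* (0.70), *Apol7d* (0.69) and *Mrps5* (0.69). For *Cry1* they were *Zfp703* (0.94), *Etf1* (0.93) and *Chpf* (0.93), and for *Cry2* *Myl1* (0.77), *Lpar3* (0.71) and *Cacna1s* (0.69), the first and last of which encode muscle proteins. *Clock* was followed by *Prpf4b* (0.91), *Kdm5b* (0.90) and *Hook3* (0.90), and *Arntl* by *Msantd2* (0.73), *Cbx8* (0.73) and *Zmym2* (0.72). *Nr1d1* was followed by *Arl2bp* (0.77), *Lpo* (0.75) and *4921531C22Rik* (0.75), *Nr1d2* by *Tamm41* (0.82), *Snrpd3* (0.80) and *Chtf8* (0.79), and *Dbp* by *Gm26610* (0.84), *Fgfrl1* (0.75) and *Galc* (0.75). No clock gene was among the 3 closest to another clock gene.

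The 10 genes lie on 8 chromosomes of GRCm38. The activators are *Clock* (ENSMUSG00000029238, chr5:76209868-76304792, minus strand) and *Arntl* (ENSMUSG00000055116, chr7:113207465-113314126, plus strand). The period genes are *Per1* (ENSMUSG00000020893, chr11:69095217-69109960, plus strand), *Per2* (ENSMUSG00000055866, chr1:91415982-91459324, minus strand) and *Per3* (ENSMUSG00000028957, chr4:151003652-151044665, minus strand). The cryptochromes are *Cry1* (ENSMUSG00000020038, chr10:85131700-85185064, minus strand) and *Cry2* (ENSMUSG00000068742, chr2:92403646-92434043, minus strand). *Nr1d1* (ENSMUSG00000020889, chr11:98767932-98775333, minus strand) shares its chromosome with *Per1*, and *Dbp* (ENSMUSG00000059824, chr7:45705088-45710203, plus strand) with *Arntl*, while *Nr1d2* (ENSMUSG00000021775) is at chr14:18204054-18239127 on the minus strand.

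Several of them overlap another counted gene by their whole spans, introns included. Overlap of exons was not examined, so how far their counts are uncertain is not known. The strand setting of the counting is not named, and the paper reports default parameters for its tools unless specified. The 3′ end of *Nr1d1* overlaps that of *Thra*, a thyroid hormone receptor gene on the other strand, over 1075 bases. Levels of *Thra* were lower in the GR KO line with DMSO (log2 difference -0.97, SE 0.12, adjusted p = 0.000621 from edgeR) and with GC (-1.06, adjusted p = 0.000646 from edgeR), and its part in the values of *Nr1d1* was not tested. The 3′ end of *Dbp* overlaps *Sphk2* on the other strand over 737 bases. *Per3* lies wholly within the span of *Camta1* on the same strand, over 41014 bases, so strand alone would not separate them. Whether exons of the 2 genes overlap was not examined. *Camta1* was higher in control tumors than in DMSO cells (1.63 and 1.82 in the parental and GR KO lines), in the same comparison as *Per3*. *Cry2* overlaps *D930015M05Rik* on the other strand over 23417 bases away from its 3′ end.

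RefSeq promoter windows of 300 bases on GRCm38.p6 were found for 9 of the 10 genes, 13 windows in all, and *Per2* had no entry. They were searched on both strands for the E-box CACGTG, the variant CACGTT, the D-box TTATGTAA, the nuclear receptor element AGGTCA, the cyclic AMP element TGACGTCA and the palindrome of the glucocorticoid receptor, taken as GNACA and TGTNC set 3 bases apart. Of 32851 promoters of the same length, 7.15% held the E-box, 4.68% the variant, 0.938% the D-box, 16.3% the receptor element, 1.79% the cyclic AMP element and 0.475% the palindrome. The E-box was in the windows of 2 genes (*Per1* and *Cry1*), the variant in those of 3 (*Cry1*, *Cry2* and *Nr1d1*), the D-box in that of 1 (*Per3*) and the receptor element in those of 4 (*Per1*, *Arntl*, *Clock* and *Nr1d2*). The cyclic AMP element and the palindrome matched in 0 of the windows, which says only that these letters are not there. Windows are shown for *Per1*, which rose with GC, in both of its annotated starts (chr11:69098699-69098998 and chr11:69099902-69100201, plus strand), for *Per3*, which holds 2 D-boxes (chr4:151044616-151044915, minus strand), and for *Cry1*, which holds the E-box and its variant (chr10:85185005-85185304, minus strand). Capitals mark the matches, which are descriptions of the letters and not of bound sites.
Per1 first window: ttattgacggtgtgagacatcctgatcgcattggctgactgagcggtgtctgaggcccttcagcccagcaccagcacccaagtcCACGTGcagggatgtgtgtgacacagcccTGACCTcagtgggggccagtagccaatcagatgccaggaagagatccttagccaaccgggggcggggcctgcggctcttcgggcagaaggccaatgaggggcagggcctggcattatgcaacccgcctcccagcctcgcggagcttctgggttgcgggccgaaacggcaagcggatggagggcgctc
Per1 second window: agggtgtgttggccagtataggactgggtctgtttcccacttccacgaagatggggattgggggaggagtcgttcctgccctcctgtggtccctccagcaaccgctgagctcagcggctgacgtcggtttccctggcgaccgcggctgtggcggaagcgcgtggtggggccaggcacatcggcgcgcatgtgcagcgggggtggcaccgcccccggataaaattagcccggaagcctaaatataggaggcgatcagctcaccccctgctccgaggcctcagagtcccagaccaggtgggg
Per3 window: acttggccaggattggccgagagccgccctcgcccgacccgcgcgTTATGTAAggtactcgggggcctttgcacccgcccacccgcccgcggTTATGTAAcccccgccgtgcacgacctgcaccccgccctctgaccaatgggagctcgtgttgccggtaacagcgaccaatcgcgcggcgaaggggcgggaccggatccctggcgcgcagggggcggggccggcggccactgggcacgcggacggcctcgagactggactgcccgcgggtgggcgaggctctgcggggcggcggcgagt
Cry1 window: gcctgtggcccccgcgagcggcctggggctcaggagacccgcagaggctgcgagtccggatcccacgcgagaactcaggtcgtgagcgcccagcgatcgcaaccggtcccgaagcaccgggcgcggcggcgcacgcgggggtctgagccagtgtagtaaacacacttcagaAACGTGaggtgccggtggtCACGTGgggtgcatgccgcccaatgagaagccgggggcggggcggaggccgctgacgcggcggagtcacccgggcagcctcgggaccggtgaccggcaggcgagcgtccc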

How the data were processed

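RNA of 20 tumors and 11 cultures was sequenced from 3′ ends. The authors trimmed reads with Trim Galore 0.6.5, aligned them with STAR 2.6.1d to GRCm38 and deposited raw integer counts per gene from featureCounts with the Ensembl release 75 annotation. The version of featureCounts is not given in the sources used here. Its strand setting is not named, and the paper reports default parameters unless specified. A gene was tested where 3 or more samples of a fit had 0.5 CPM or more, with edgeR 4.0.16 (R 4.3.3, TMM, quasi-likelihood test, all groups of an experiment in one fit, 31 libraries for tumors against cells), with Benjamini-Hochberg adjustment over all genes tested. Calls needed an adjusted p under 0.05 and a change of at least 1.5-fold. Named were the 10 clock genes in every comparison, genes of a wider clock list where called, GC targets, overlapping genes and the 3 closest genes by correlation. Some genes of the wider list are not reported here by name. The members and lists were chosen with earlier results of these data known. No source used here pairs samples by replicate number, so no block was used. Correlations used 100000 permutations and a pseudocount of 1. Alternatives were DESeq2 1.42.0, its size factors, other filters and fold minimums, the replicate block, other sets of samples, each sample left out, a pseudocount of 0.1 and, chosen after seeing the data, library complexity. limma 3.58.1, Python 3.11.15, numpy 2.4.6, scipy 1.17.1, pandas 2.3.3 and matplotlib 3.10.9 were also used, and the code was tested on simulated data.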

Additional observations from a re-analysis of the deposited data

Results flagged for a closer look

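In 40 sets, each a clock gene in a group of 5 tumors, 3 had a sample far from the others. The sets share the same 20 tumors, and how many chance would give was not measured. *Arntl* in parental GC tumor 3 was at 7.03 CPM, above 4 tumors at 3.25 to 4.19 CPM, with a gap of 0.751 of the group's range. *Per1* in parental control tumor 1 was at 26.6 CPM, above 4 tumors at 16.9 to 17.5 CPM, with a gap of 0.938 of the range. *Cry1* in GR KO control tumor 4 was at 34.9 CPM, below 4 tumors at 65.3 to 76.9 CPM, with a gap of 0.724 of the range. That tumor also had the most genes detected of its group (16740). *Per1* in cells differed in its GC effect between the lines by 3.00 on the log2 scale, and the test of that difference passed (adjusted p = 0.00415 from edgeR).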

How the results depend on the processing

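Of 2004 values of single clock genes under an alternative, 1988 kept their side of the threshold and 0 calls turned direction. *Per1* was called with GC in parental cells and parental tumors, and in the difference between cells, under each alternative that could be fitted and with each sample left out. In GR KO tumors 1 of 10 clock genes was called, 0 without the low-detection tumors and 1 to 2 with each sample left out. Between control tumors 1 was called with DESeq2 and 1 with all 31 libraries in one fit, against 0, and 0 to 1 with each sample left out. Between DMSO-treated cells 1 was called with DESeq2, against 0, and 0 to 1 with each sample left out. Between GC-treated tumors the range was 0 to 1, and in each case the cause was not tested. A minimum fold change of 2 ended the call of *Nr1d2* between parental control tumors and cells (0.94), by construction. Under at least 10 counts in every sample *Per2* was not tested, and fits of the compared groups alone were not run for differences of effects, where they are the same fit. Leaving out a parental GC culture leaves 1, assumed to vary like the other groups. Same-numbered samples deviated from their group means with a mean correlation of 0.0584 in tumors (-0.543 to 0.415) and 0.0197 in cells (-0.552 to 0.620), and between parental and GR KO GC-treated tumors it was positive in each of the 5 numbers (0.389, 0.383, 0.0998, 0.296 and 0.258). The replicate block changed no call of a clock gene (1 of 10 with GC in parental tumors), and it moved the calls among all genes from 110 to 63 with GC in parental cells, from 31 to 144 for the difference between tumors and from 101 to 160 between GC-treated tumors. Counts over all genes moved more. With DESeq2 they went from 110 to 251 (GC, parental cells), 37 to 128 (difference, cells), 124 to 376 (GC, parental tumors), 1022 to 1756 (GC, GR KO tumors), 31 to 784 (difference, tumors), 358 to 1001 (control tumors) and 101 to 293 (GC-treated tumors). One fit of all libraries gave 2 against 0 (GC, GR KO cells), 22 (difference, cells), 194, 1612, 443, 903 and 164 in the 5 tumor comparisons, in the order just given, and, between DMSO-treated cells, 636 against 1030. The compared groups alone gave 59 (GC, parental cells), 391 (GC, GR KO tumors), 154 (control tumors) and, between GC-treated cells, 230 against 695. A minimum fold of 2 gave 583 (GC, GR KO tumors) and 238 (control tumors). No filter gave 64 and 49 for the differences in cells and tumors, and at least 10 counts gave 66 for the latter, 661 and 445 between cells with DMSO and GC, and 4430 and 5069 against 7595 and 8917 between tumors and cells. With the detection covariate they were 522, 217, 12, 51 and 361 in the 5 tumor comparisons, in the order given for DESeq2, and without the libraries doubted 32 (GC, parental tumors), 68 (GC, GR KO tumors), 0 (difference, either set), 23 (control tumors) and 25 (GC-treated tumors). With each sample left out they ranged from 31 to 78, 17 to 43, 60 to 179, 303 to 2411, 0 to 1288, 61 to 1762 and 40 to 114 in that order, from 594 to 916 between DMSO-treated and from 322 to 842 between GC-treated cells. Low counts of *Per2*, 2 parental GC cultures and an unstated time of day limit what these data can show.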
